A study of Mus musculus with 15 samples.

Results

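The 50 genes described here encode the machinery that brings new secretory proteins into the endoplasmic reticulum (ER), folds, glycosylates and discards them there, and senses when folding falls behind. They were chosen by name, as a list of stress sensors, chaperones, ER-associated degradation factors, translocon subunits and glycosylation enzymes. Earlier results of these data were known when the list was drawn up, so its counts are not independent of them. Each gene stands for the brightest of its probes by mean red signal over the 15 arrays. All 50 of the 50 had a probe, all 50 passed the filter on dim probes, and the probe used was well above background in red on all 15 arrays for every one of them. They are 50 of 23939 features tested in all.

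The samples were crypts of the small intestine from mice aged 6 to 8 weeks, the pits of the epithelium that hold stem cells, their dividing progeny, Paneth cells and young goblet cells. The N1N2_Lrp6 mice were given antibodies that block Notch1 and Notch2, the receptors that keep crypt progenitors from the secretory fates, and also anti-Lrp6 at 30 mg/kg, which acts on a Wnt co-receptor. The N1N2 mice had received the Notch1 and Notch2 antibodies alone, and the control mice an IgG control antibody. Crypts were taken after 24 h in all 3 groups, with 5 arrays per group. The labels give the Notch antibodies as a single dose of 1 mg/mL, which is a concentration, and give no strain, sex or genotype. Whether an array holds 1 mouse or a pool is not stated, so p-values measure the spread between these arrays. Values are log2 ratios of crypt RNA (red) over a common mouse reference RNA (green), so the level of one gene's probe cannot be set against that of another.

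Proteins made for secretion enter the ER through the Sec61 channel, lose their signal peptide, receive N-linked sugars from the oligosaccharyltransferase and are folded by chaperones such as BiP (Hspa5) and by protein disulphide isomerases. Chains that do not fold are drawn back to the cytosol and destroyed, which is ER-associated degradation. When unfolded chains build up, the sensors IRE1, PERK and ATF6 start the unfolded protein response, which raises chaperone and degradation genes. In the intestine this machinery is known to be heavily used by the mucus-making goblet cells and the granule-filled Paneth cells.

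Before the comparisons, 2 arrays stood apart. N1N2_Lrp6 replicate 1 was the lowest of its group for 42 of the 50 genes and averaged 0.50 over them, against 1.07 to 1.45 on the other 4 arrays of its group. That array also had the lowest share of spots well above background in red, 57.2%, against 63.0% to 73.6% on the other arrays of its group. The range was 70.1% to 77.2% in the N1N2 group and 71.1% to 79.8% in the control group. The genes for which it was not lowest were Ern2, Hyou1, Dnajc10, Pdia5, Herpud1, Edem2, Ostc and Stt3a. Control replicate 3 was the highest of its group for 37 of the 50 genes and averaged 1.37, against 1.02 to 1.11 on the other control arrays. Over all 50 genes the mean was 1.06 ± 0.35 for N1N2_Lrp6, 1.63 ± 0.06 for N1N2 and 1.11 ± 0.15 for control crypts (SD, n = 5 arrays each). The 15 arrays lay on 6 slides, of which 1 held arrays of more than 1 group.

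**Figure D1:**
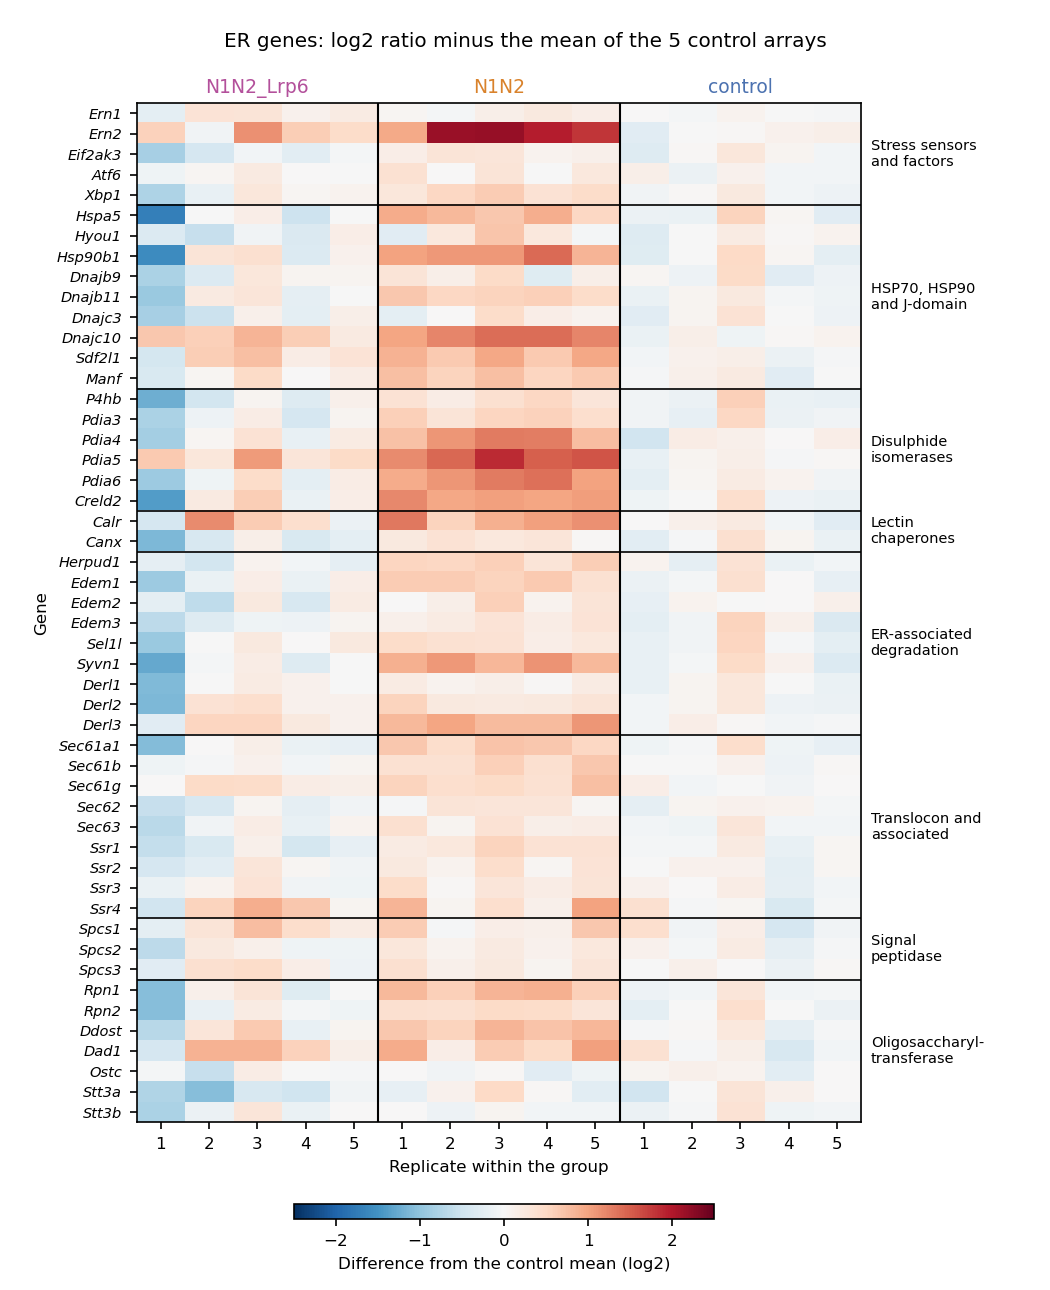
Each row is a gene and each column an array, with N1N2_Lrp6, N1N2 and control arrays from left to right; the colour is the log2 ratio minus the mean of the 5 control arrays. The N1N2 block is mostly red, with Ern2 the darkest row, and N1N2_Lrp6 replicate 1 is blue for most genes but red for Ern2, Dnajc10 and Pdia5.

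With both Notch receptors blocked, genes of most steps of ER folding rose. The count moved with the normalization and with slide as a block, as given below. In N1N2 crypts against control crypts, 19 of the 50 genes rose and 0 fell (limma, Benjamini-Hochberg adjusted p under 0.05 over all features), beside 6.57% of all features that rose and 5.15% that fell. The median change of the 50 genes was 0.43 on the log2 scale, with a range of -0.09 to 1.81 and 48 genes above 0, and the median over all features was 0.00. At an unadjusted p under 0.05, 27 were higher and 0 lower. The share of all features past that unadjusted threshold was not counted, here or where such counts are given below. The disulphide isomerases rose most as a group, with 4 of 6 past the threshold and a median of 1.04, and the HSP70, HSP90 and J-domain chaperones followed with 4 of 9 and a median of 0.65. Of the sensors and their transcription factors 1 of 5 rose, of the lectin chaperones 1 of 2, of the degradation factors 4 of 9, of the translocon genes 3 of 9, of the oligosaccharyltransferase subunits 2 of 7 and of the signal peptidase subunits 0 of 3. In bulk crypts, more cells of a secretory type and more RNA per cell cannot be told apart.

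With the Lrp6 antibody added to Notch blockade, 29 of the 50 ER genes were lower than with Notch blockade alone. The N1N2_Lrp6 arrays lay on slides of their own, so slide and group cannot be told apart here. The count also moved with the normalization, as given below. In N1N2_Lrp6 crypts against N1N2 crypts these 29 fell and 0 rose, beside 7.26% of all features that fell and 9.44% that rose. The median change was -0.55, with a range of -1.31 to 0.04, against a median of 0.00 over all features. At an unadjusted p under 0.05, 37 were lower and 0 higher, with no share of all features counted at that threshold. All 6 disulphide isomerases fell, with a median of -1.04, as did 6 of 9 HSP70, HSP90 and J-domain chaperones, 3 of 5 sensors and factors, 5 of 9 degradation factors, 4 of 9 translocon genes, 4 of 7 oligosaccharyltransferase subunits and 1 of 2 lectin chaperones. Of the 3 listed signal peptidase subunits 0 were called here, with Spcs2 at -0.29 (unadjusted p = 0.0472), and whether this role differs from the others was not tested. This comparison and the one above share the N1N2 arrays, so their opposite directions are not independent of each other.

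Against control crypts, N1N2_Lrp6 crypts differed in 1 of the 50 genes, Dnajc10, which rose, beside 0.221% of all features that rose and 0.155% that fell. The median change was -0.12, between -0.56 for Stt3a and 0.60 for Dnajc10, with 16 genes above 0 and 34 below, and the median over all features was 0.01. At an unadjusted p under 0.05, 4 genes were higher and 4 lower, with no share of all features counted at that threshold. The comparison uses the same arrays as the other two.

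The counts moved with the scaling and with the 2 arrays that stood apart. Without N1N2_Lrp6 replicate 1, 27 genes rose in N1N2 against control crypts, beside 8.6% of all features. That array is in neither group of this comparison, so the median stayed 0.43 and only the standard errors moved. In N1N2_Lrp6 against N1N2 crypts 25 then fell with a median of -0.42, beside 5.51% of all features. In N1N2_Lrp6 against control crypts 0 were called, and the median turned to 0.05. Without control replicate 3 the counts were 22, 29 and 0, the first beside 6.32% of all features that rose and the second beside 7.24% that fell. With each array centred on its median in place of the loess curve, which bends with brightness, 7 genes rose in the first comparison with a median of 0.14, beside 2.39% of all features, and 8 fell in the second with a median of -0.26, beside 3.26%. With the log ratios scaled to equal spread between arrays, 4 rose in the first, beside 1.98% of all features, and 1 fell in the second, beside 0.664%. Over all features the split of calls moved too: 1573 of 2806 calls were rises in N1N2 against control crypts, against 573 of 1252 after median centring and 474 of 675 after scaling, and in N1N2_Lrp6 against N1N2 crypts 2261 of 3999 were rises, against 2634 of 3414 after median centring.

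Slide could be separated from group only for the Notch antibodies. Slide 2 held N1N2 replicates 1 and 2 and control replicates 4 and 5. Within it the median difference of the 50 genes was 0.53, 47 genes were above 0, beside 53.1% of all features with a value on these arrays, and both N1N2 arrays lay above both control arrays for 41 genes, beside 25.3% of all features. Ern2, Xbp1, Hspa5, Dnajc10 and Pdia5 were among the 41. A fit with slide as a block takes this contrast from the same 4 arrays, and in it 2 genes, Dnajc10 and Pdia5, passed the threshold, beside 109 features in all. The N1N2_Lrp6 arrays lay on slides of their own, so for them slide and group cannot be told apart.

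**Figure D2:**
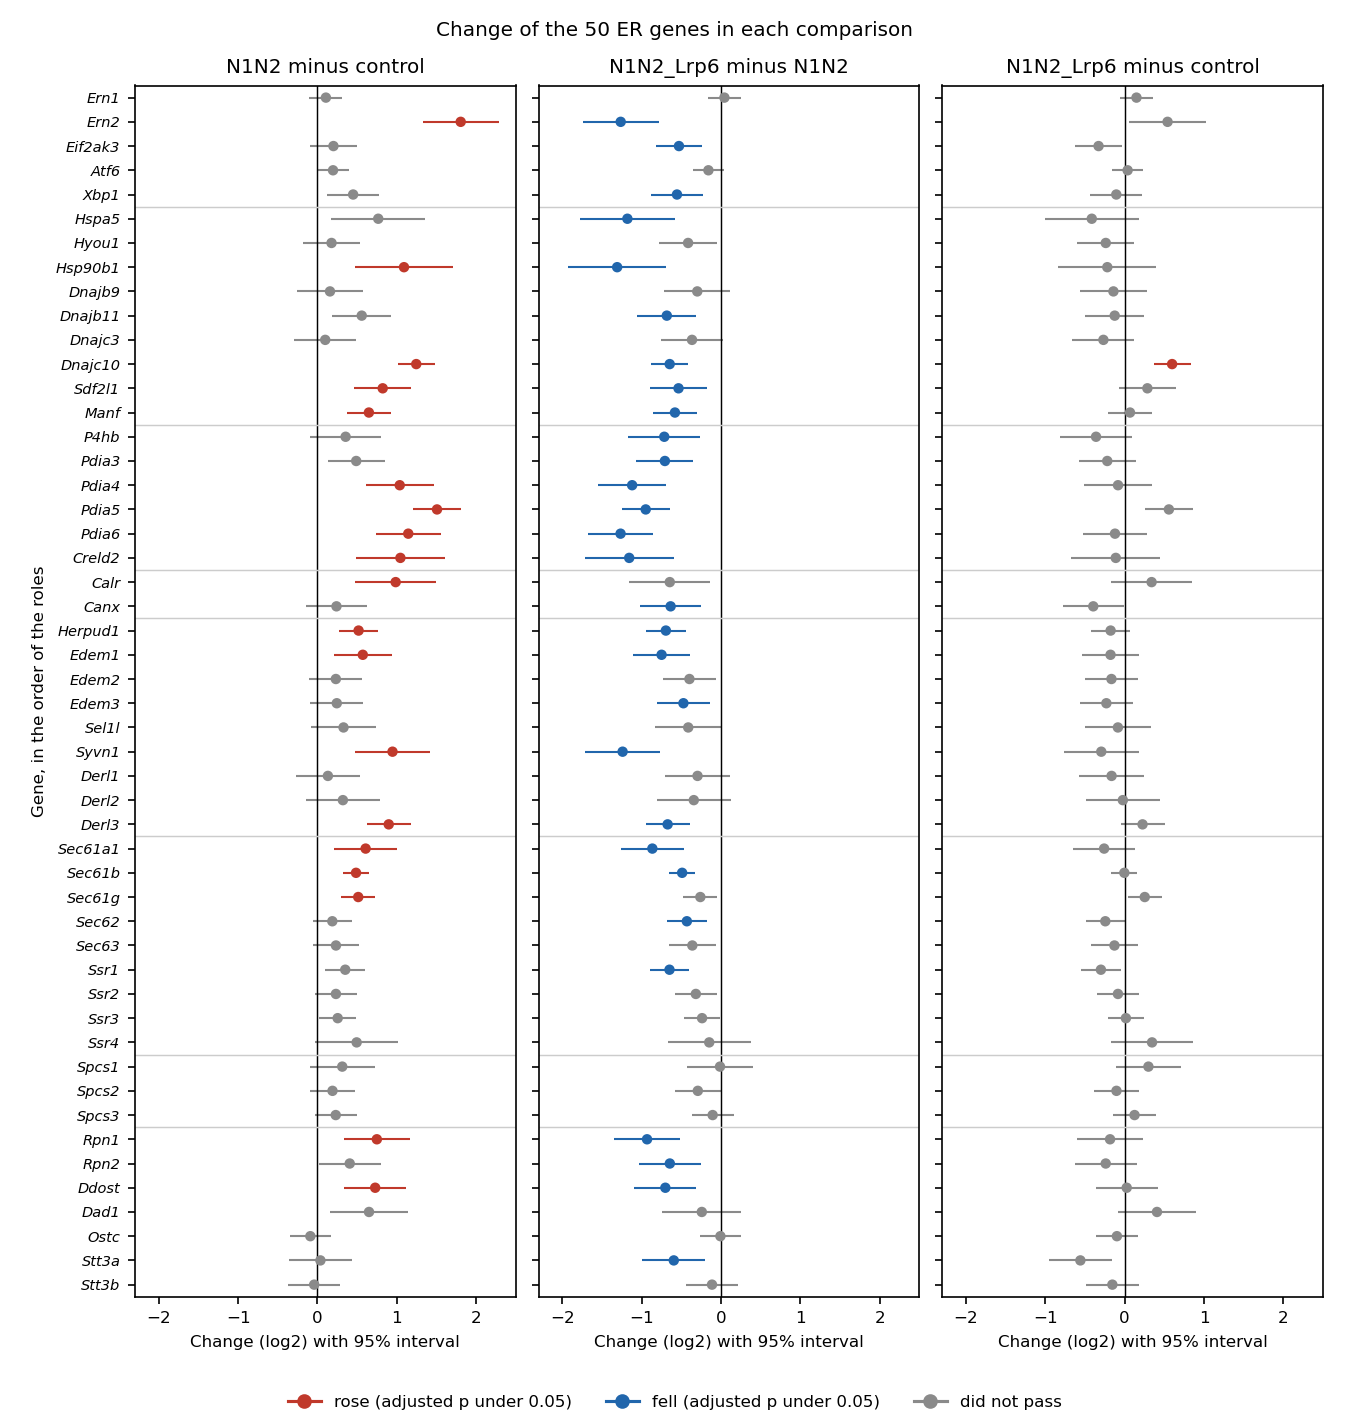
Points are log2 changes of the 50 genes in the 3 comparisons, bars their 95% confidence intervals from the fit, in the order of the roles; red passed as higher, blue as lower, grey did not pass. The left panel has 19 red points, the middle panel 29 blue points and the right panel 1 red point, Dnajc10.

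Some of the promoters held elements known from the unfolded protein response, for whose genes the list was drawn up, so a match is not independent of the choice. The unfolded protein response is known to act through the ER stress response element (ERSE), searched here as CCAAT, then any 9 bases, then CCACG, and through ERSE-II, searched as ATTGG, then any 1 base, then CCACG. RefSeq windows of 300 bases, from 250 before to 50 after the gene's start (build GRCm38.p6), matched 41 of the 50 genes. On either strand, 9 of these 41 genes (22.0%) held an ERSE, namely Calr, Canx, Creld2, Derl3, Dnajc3, Hsp90b1, Hspa5, Pdia6 and Syvn1, beside 0.14% of all 27025 genes with a window (37 genes). An ERSE-II stood in Dnajb11 and Herpud1, 4.88% of the 41, beside 0.04% of all genes. TGACGTG followed by G, a form of the unfolded protein response element, stood in 0 of the 41, beside 0.71% of all genes. Other forms of that element were not searched, and the Hspa5 window holds TGACGTG followed by A. TTGC, then any 1 base, then TCA, a form of the element bound by ATF4, stood in Dnajb9 and Herpud1, beside 4.22% of all genes. The CCACG core alone was held by 78.0% of the 41, beside 35.5% of all genes.

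Of the 16 genes that rose in N1N2 against control crypts and had a window, 6 held an ERSE, against 3 of the 25 that were not called. A match is a description of the letters and not a shown binding site. The promoters below are of 5 genes with an ERSE (Hspa5, the classical target, and Hsp90b1, Pdia6, Creld2 and Derl3, which rose), of Herpud1 with its ERSE-II, and of Dnajc10, the gene that rose in 2 comparisons and has none of these elements in its window. Capitals mark the ERSE or ERSE-II, which read CGTGG first where it lies on the opposite strand. In Hspa5 it lies 65 to 47 bases before the start, in Pdia6 98 to 80, in Creld2 126 to 108, in Derl3 156 to 138 and in Herpud1 52 to 42. Hsp90b1 holds an ERSE at 212 to 194 and another at 107 to 89 bases before its start.
Hspa5, chr2:34771840-34772139, plus strand: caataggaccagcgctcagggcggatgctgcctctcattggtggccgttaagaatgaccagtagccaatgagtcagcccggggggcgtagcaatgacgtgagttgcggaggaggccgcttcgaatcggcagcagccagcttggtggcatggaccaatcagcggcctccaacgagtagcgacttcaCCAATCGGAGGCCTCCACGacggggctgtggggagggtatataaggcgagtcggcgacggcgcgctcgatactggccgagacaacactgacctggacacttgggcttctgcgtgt
Hsp90b1, chr10:86705395-86705694, minus strand: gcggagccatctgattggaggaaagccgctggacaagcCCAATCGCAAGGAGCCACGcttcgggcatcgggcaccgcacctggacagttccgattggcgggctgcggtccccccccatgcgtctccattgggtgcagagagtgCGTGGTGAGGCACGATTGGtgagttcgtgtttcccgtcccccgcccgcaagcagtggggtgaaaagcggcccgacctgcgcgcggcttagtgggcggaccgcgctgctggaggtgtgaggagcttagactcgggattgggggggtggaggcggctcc
Pdia6, chr12:17266339-17266638, plus strand: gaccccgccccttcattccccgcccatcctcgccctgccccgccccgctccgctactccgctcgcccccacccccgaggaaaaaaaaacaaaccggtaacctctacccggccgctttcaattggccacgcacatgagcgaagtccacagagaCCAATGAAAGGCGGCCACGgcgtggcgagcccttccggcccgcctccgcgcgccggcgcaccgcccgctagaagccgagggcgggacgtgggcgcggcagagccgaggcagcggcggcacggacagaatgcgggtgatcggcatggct
Creld2, chr15:88819396-88819695, plus strand: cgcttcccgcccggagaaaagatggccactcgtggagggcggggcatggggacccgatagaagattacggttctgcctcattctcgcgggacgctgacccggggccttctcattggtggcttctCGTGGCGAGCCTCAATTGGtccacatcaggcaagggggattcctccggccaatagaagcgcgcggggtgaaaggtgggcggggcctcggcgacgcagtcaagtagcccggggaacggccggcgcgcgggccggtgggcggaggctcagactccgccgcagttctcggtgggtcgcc
Derl3, chr10:75893148-75893447, plus strand: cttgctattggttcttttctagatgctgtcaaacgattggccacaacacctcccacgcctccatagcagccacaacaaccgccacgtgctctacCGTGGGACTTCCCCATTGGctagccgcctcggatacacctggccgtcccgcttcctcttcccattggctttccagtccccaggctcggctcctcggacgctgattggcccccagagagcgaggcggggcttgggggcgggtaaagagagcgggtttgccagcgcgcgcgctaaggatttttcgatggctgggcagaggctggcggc
Herpud1, chr8:94386179-94386478, plus strand: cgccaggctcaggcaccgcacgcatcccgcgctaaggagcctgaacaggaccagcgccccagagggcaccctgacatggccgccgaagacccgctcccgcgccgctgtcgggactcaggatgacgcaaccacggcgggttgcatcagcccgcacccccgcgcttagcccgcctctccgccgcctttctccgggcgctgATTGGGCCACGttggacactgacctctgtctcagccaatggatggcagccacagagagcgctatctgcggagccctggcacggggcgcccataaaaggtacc
Dnajc10, chr2:80315216-80315515, plus strand: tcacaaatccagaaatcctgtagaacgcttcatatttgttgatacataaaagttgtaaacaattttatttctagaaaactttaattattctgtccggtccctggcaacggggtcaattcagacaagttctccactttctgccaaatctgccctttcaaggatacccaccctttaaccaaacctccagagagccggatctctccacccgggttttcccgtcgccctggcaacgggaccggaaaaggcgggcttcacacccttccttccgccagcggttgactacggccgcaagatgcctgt

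Among the sensors and their factors, Ern2 was the gene that passed in N1N2 against control crypts. Ern1 encodes IRE1 alpha, the sensor found in most cells, and Ern2 encodes IRE1 beta, a form confined to mucosal epithelium such as that of the gut. The log2 ratios of Ern2 were 2.30, 1.65, 2.86, 2.33 and 2.18 in N1N2_Lrp6 crypts, 2.67, 3.88, 3.90, 3.68 and 3.52 in N1N2 crypts and 1.45, 1.71, 1.75, 1.83 and 1.88 in control crypts. All N1N2 values lay above all control values, and the N1N2_Lrp6 values overlapped them. Ern2 rose by 1.81 in N1N2 against control crypts (3.5-fold, SE 0.23, adjusted p = 0.000129). Ern2 fell by 1.27 on the log2 scale in N1N2_Lrp6 against N1N2 crypts (SE 0.23, adjusted p = 0.00231). The mean of the N1N2_Lrp6 crypts was 0.54 above that of the control crypts, which did not pass (adjusted p = 0.33). For Ern1 the log2 ratio was -0.06, 0.52, 0.51, 0.29 and 0.39 on the N1N2_Lrp6 arrays, 0.22, 0.12, 0.32, 0.42 and 0.34 on the N1N2 arrays and 0.19, 0.12, 0.26, 0.17 and 0.15 on the control arrays. The 3 groups overlapped. Ern1 changed by 0.11 in N1N2 against control crypts, which did not pass (SE 0.10, 95% interval -0.10 to 0.31, adjusted p = 0.537).

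Eif2ak3, which encodes the kinase PERK, and Atf6, the sensor that is itself cut into a transcription factor, were not called in N1N2 against control crypts, with 95% intervals of -0.09 to 0.50 and -0.00 to 0.39. Eif2ak3 was lower in N1N2_Lrp6 crypts, where its 5 values ran from 0.30 to 1.09, against 1.23 to 1.45 in N1N2 crypts, with no overlap. Eif2ak3 fell by 0.53 on the log2 scale in N1N2_Lrp6 against N1N2 crypts (SE 0.14, adjusted p = 0.0168). Xbp1 read 0.82, 1.39, 1.87, 1.64 and 1.67 on the N1N2_Lrp6 arrays, 1.86, 2.10, 2.22, 1.93 and 2.04 on the N1N2 arrays and 1.50, 1.61, 1.83, 1.51 and 1.46 on the control arrays. Xbp1 is the transcription factor whose mRNA IRE1 splices, and the probe measures its total level, not the spliced form. All N1N2 values lay above all control values, but the change of 0.45 missed the threshold (SE 0.15, adjusted p = 0.0718) and passed without N1N2_Lrp6 replicate 1. That array is in neither of these 2 groups, so the change stayed 0.45 and only the SE fell, to 0.10. Xbp1 fell by 0.56 on the log2 scale in N1N2_Lrp6 against N1N2 crypts (SE 0.15, adjusted p = 0.0221). That call was lost without N1N2 replicate 2 or 3.

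The difference between the sensor genes was tested directly, as 1 of 8 pairs of related genes picked after their values were seen. On each array the value of Ern1 was taken from that of Ern2, and the 5 differences of each group were compared by an exact two-sided permutation test, adjusted over 24 tests (8 pairs in 3 comparisons). Ern2 gained 1.70 on Ern1 in N1N2 against control crypts (exact permutation p = 0.00794, adjusted p = 0.0476, 5 of 5 differences above all control differences). It lost 1.31 on Ern1 in N1N2_Lrp6 against N1N2 crypts, also without overlap (exact permutation p = 0.00794, adjusted p = 0.0476). An exact p of 0.00794 is the smallest that 5 against 5 arrays can give.

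**Figure D3:**
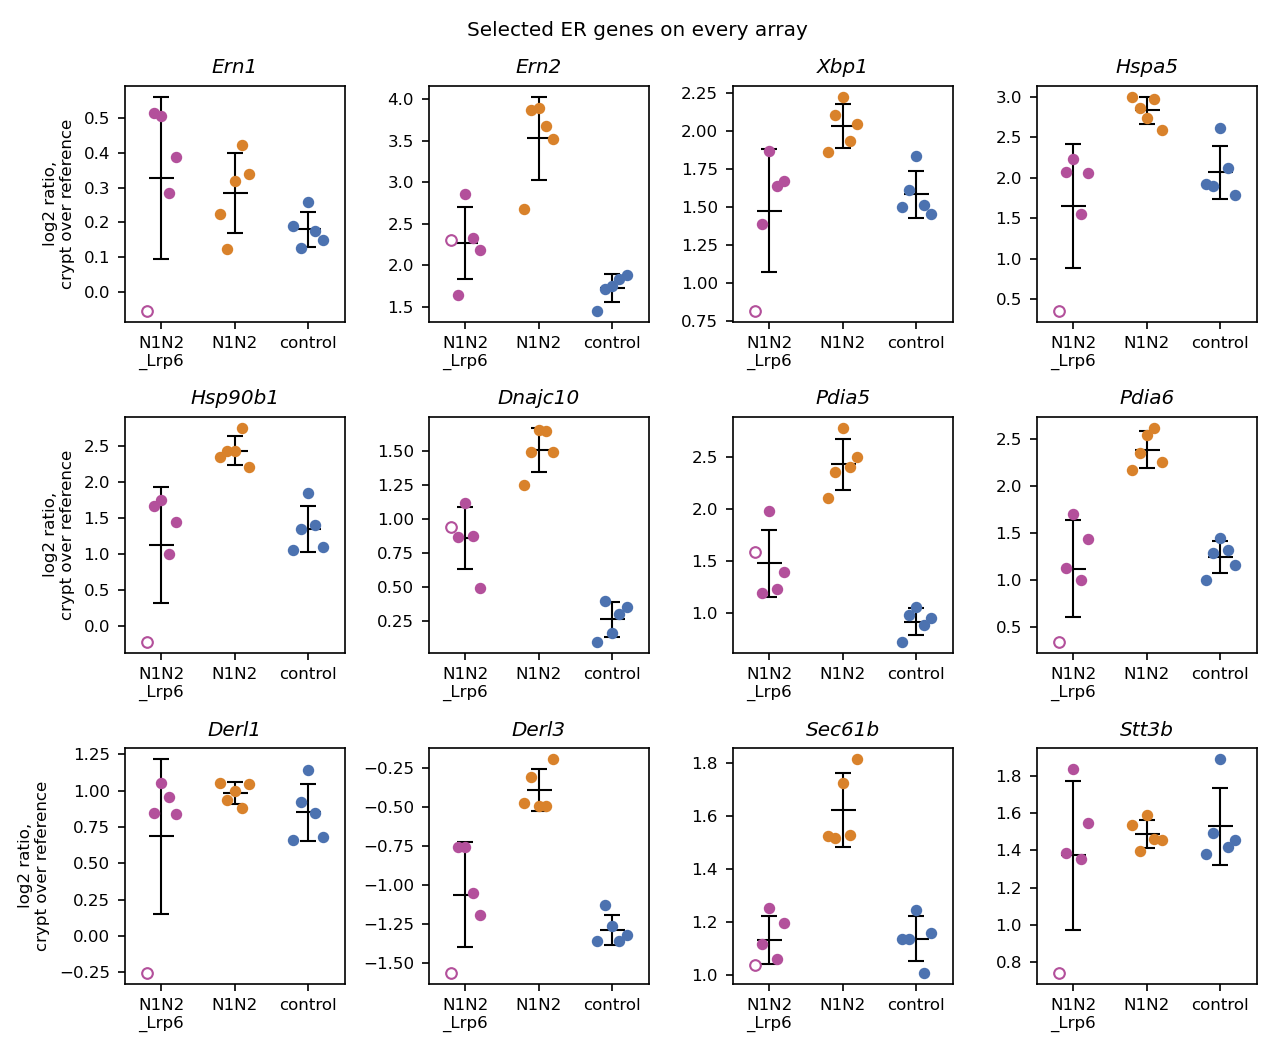
Points are single arrays of the N1N2_Lrp6, N1N2 and control groups from left to right, for 12 genes, on axes that do not start at 0; bars are the mean and SD of 5 arrays, and the open circle is N1N2_Lrp6 replicate 1. Ern2, Xbp1, Hsp90b1, Dnajc10, Pdia5, Pdia6, Derl3 and Sec61b have N1N2 points above all control points. The N1N2 points of Hspa5 overlap the control points, and Ern1, Derl1 and Stt3b overlap in all groups.

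Of the chaperones of the ER lumen, 4 of 9 rose under Notch blockade. Hspa5 encodes BiP, the HSP70 of the ER and the classical target of the unfolded protein response, with an ERSE in its promoter. The log2 ratios of Hspa5 were 0.35, 2.07, 2.24, 1.55 and 2.05 in N1N2_Lrp6 crypts, 3.00, 2.87, 2.74, 2.97 and 2.59 in N1N2 crypts and 1.92, 1.90, 2.62, 2.12 and 1.78 in control crypts. The N1N2 values lay above all N1N2_Lrp6 values and overlapped the control values. The rise of 0.77 over control did not pass (SE 0.28, adjusted p = 0.0894), although it passed without N1N2_Lrp6 replicate 1. That array is in neither of these 2 groups, so the change stayed 0.77 and only the SE fell, to 0.16. Hspa5 fell by 1.18 on the log2 scale in N1N2_Lrp6 against N1N2 crypts (SE 0.28, adjusted p = 0.0102). For Hsp90b1 the log2 ratio was -0.23, 1.66, 1.75, 0.99 and 1.45 on the N1N2_Lrp6 arrays, 2.35, 2.43, 2.44, 2.76 and 2.20 on the N1N2 arrays and 1.05, 1.34, 1.84, 1.40 and 1.09 on the control arrays. Hsp90b1, whose promoter holds 2 ERSE, encodes GRP94, the HSP90 of the ER. Hsp90b1 rose by 1.09 in N1N2 against control crypts (2.13-fold, SE 0.29, adjusted p = 0.0253). That call was lost without control replicate 1, 2 or 5 or N1N2 replicate 4. Hsp90b1 fell by 1.31 on the log2 scale in N1N2_Lrp6 against N1N2 crypts (SE 0.29, adjusted p = 0.00736).

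Dnajc10 encodes ERdj5, a J-domain protein with none of the searched elements in its promoter window, which reduces disulphide bonds of chains on their way to degradation. Dnajc10 read 0.94, 0.86, 1.12, 0.88 and 0.49 on the N1N2_Lrp6 arrays, 1.25, 1.49, 1.65, 1.65 and 1.49 on the N1N2 arrays and 0.09, 0.40, 0.16, 0.30 and 0.35 on the control arrays. Every N1N2 array read higher than every array of the other groups. Dnajc10 rose by 1.25 in N1N2 against control crypts (2.37-fold, SE 0.11, adjusted p = 4.21e-06). Dnajc10 fell by 0.65 on the log2 scale in N1N2_Lrp6 against N1N2 crypts (SE 0.11, adjusted p = 0.00171). Dnajc10 rose by 0.60 in N1N2_Lrp6 against control crypts (1.51-fold, SE 0.11, adjusted p = 0.0307). That last call was lost when any 1 of 8 arrays was left out, namely N1N2_Lrp6 replicates 1 to 4 or control replicates 2 to 5. A second, dimmer probe of Dnajc10 moved by 0.83 in N1N2 against control crypts and by -0.48 in N1N2_Lrp6 against N1N2 crypts.

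Sdf2l1 (part of a BiP chaperone complex) and Manf (a small secreted ER protein that binds BiP) rose in N1N2 against control crypts by 0.82 and 0.65 (adjusted p = 0.00616 and 0.00587), and fell in N1N2_Lrp6 against N1N2 crypts by 0.54 and 0.58 (adjusted p = 0.041 and 0.00822). The fall of Sdf2l1 was lost without any 1 of 10 arrays, N1N2_Lrp6 replicate 1 and all N1N2 arrays among them. Dnajb11, a J-domain partner of BiP, missed the threshold in N1N2 crypts at 0.56 (adjusted p = 0.0505), though all 5 N1N2 values, 2.08 to 2.30, lay above all control values, 1.47 to 1.87. It fell in N1N2_Lrp6 against N1N2 crypts by 0.68 (adjusted p = 0.0149). The other J-domain genes Dnajb9 (ERdj4) and Dnajc3 (an inhibitor of PERK) and the HSP70-like Hyou1 were called in none of the 3 comparisons. Their changes in N1N2 against control crypts were 0.16, 0.10 and 0.18, with 95% intervals that reached 0.58, 0.49 and 0.54.

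The disulphide isomerases form and shuffle the bonds between cysteines, which the large mucins need in great number. Pdia5 had the largest change of the 6 under Notch blockade. The log2 ratios of Pdia5 were 1.59, 1.20, 1.98, 1.23 and 1.40 in N1N2_Lrp6 crypts, 2.11, 2.36, 2.78, 2.41 and 2.50 in N1N2 crypts and 0.73, 0.98, 1.06, 0.89 and 0.95 in control crypts. The N1N2 values of Pdia5 did not overlap either other group and were higher. Pdia5 rose by 1.51 in N1N2 against control crypts (2.84-fold, SE 0.14, adjusted p = 8.75e-06). Pdia5 fell by 0.95 on the log2 scale in N1N2_Lrp6 against N1N2 crypts (SE 0.14, adjusted p = 0.000865). Its level in N1N2_Lrp6 crypts stayed above that of every control array, at 0.56 over control, without passing (SE 0.14, adjusted p = 0.118).

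For Pdia6 the log2 ratio was 0.34, 1.13, 1.70, 0.99 and 1.43 on the N1N2_Lrp6 arrays, 2.17, 2.35, 2.54, 2.62 and 2.25 on the N1N2 arrays and 1.00, 1.28, 1.44, 1.32 and 1.16 on the control arrays. Pdia6 encodes P5, an isomerase that also restrains IRE1 signalling. All N1N2 values lay above all values of the other groups. Pdia6 rose by 1.14 in N1N2 against control crypts (2.21-fold, SE 0.19, adjusted p = 0.00148). Pdia6 fell by 1.27 on the log2 scale in N1N2_Lrp6 against N1N2 crypts (SE 0.19, adjusted p = 0.000865). Its second probe moved the same way, by 0.87 and -0.78. Pdia4 (ERp72) and Creld2, an isomerase-like protein with EGF repeats, rose by 1.04 and 1.05 in N1N2 against control crypts (adjusted p = 0.00444 and 0.0193) and fell by 1.12 and 1.16 in N1N2_Lrp6 against N1N2 crypts (adjusted p = 0.00243 and 0.00835). The rise of Creld2 was lost without control replicate 5.

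P4hb, the founding member of the family, averaged 2.43 ± 0.54 in N1N2_Lrp6 crypts, 3.15 ± 0.12 in N1N2 crypts and 2.79 ± 0.33 in control crypts (SD, n = 5 arrays each). It fell in N1N2_Lrp6 against N1N2 crypts by 0.72 (adjusted p = 0.0302), a call lost without N1N2_Lrp6 replicate 1 or 4 or N1N2 replicate 3 or 4. Pdia3 (ERp57), which works with the lectin chaperones, fell there by 0.71 (adjusted p = 0.0104). In N1N2 against control crypts P4hb and Pdia3 did not pass, at 0.36 and 0.49 (adjusted p = 0.314 and 0.0737).

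Calr encodes calreticulin and Canx calnexin, lectins that hold newly glycosylated chains, the first free in the ER lumen and the second anchored in its membrane. Calr read 1.23, 2.84, 2.29, 2.08 and 1.51 on the N1N2_Lrp6 arrays, 2.96, 2.21, 2.54, 2.68 and 2.80 on the N1N2 arrays and 1.65, 1.78, 1.87, 1.59 and 1.36 on the control arrays. All N1N2 values lay above all control values, and the N1N2_Lrp6 values overlapped them. Calr rose by 0.99 in N1N2 against control crypts (1.98-fold, SE 0.24, adjusted p = 0.0158). The fall of 0.65 in N1N2_Lrp6 against N1N2 crypts missed the threshold (adjusted p = 0.0791). Canx was not called in N1N2 against control crypts (0.24, adjusted p = 0.438) and fell by 0.64 in N1N2_Lrp6 against N1N2 crypts (adjusted p = 0.0251), lost without N1N2_Lrp6 replicate 4 or N1N2 replicate 2 or 4. Whether the 2 lectins differ from each other was not tested.

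**Figure D4:**
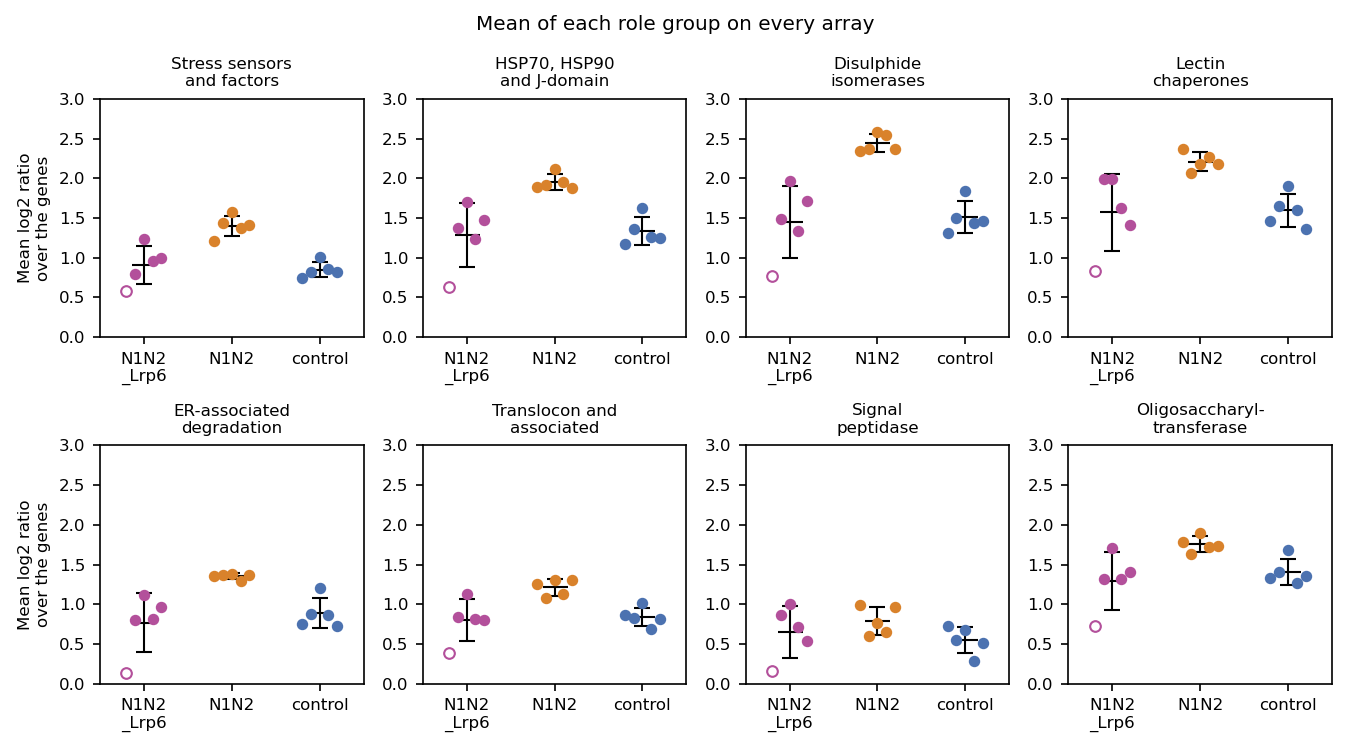
Points are the mean log2 ratio over the genes of each role on a single array, for the N1N2_Lrp6, N1N2 and control groups from left to right; bars are the mean and SD of 5 arrays, and the open circle is N1N2_Lrp6 replicate 1. The disulphide isomerases averaged 1.45 ± 0.45, 2.44 ± 0.11 and 1.51 ± 0.20 in that order of groups, and the listed signal peptidase subunits 0.66 ± 0.33, 0.79 ± 0.18 and 0.55 ± 0.17.

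In ER-associated degradation, Syvn1 encodes HRD1, the ubiquitin ligase at the centre of the export channel, and Sel1l its partner. The log2 ratios of Syvn1 were 0.33, 1.57, 1.81, 1.29 and 1.61 in N1N2_Lrp6 crypts, 2.51, 2.70, 2.44, 2.75 and 2.42 in N1N2 crypts and 1.43, 1.57, 2.09, 1.72 and 1.28 in control crypts. Every N1N2 array read higher than every array of the other groups. Syvn1 rose by 0.95 in N1N2 against control crypts (1.93-fold, SE 0.22, adjusted p = 0.0136). Syvn1 fell by 1.24 on the log2 scale in N1N2_Lrp6 against N1N2 crypts (SE 0.22, adjusted p = 0.0024). Sel1l was called in neither of these comparisons (0.33 and -0.41, adjusted p = 0.311 and 0.173). Herpud1, a membrane scaffold of the HRD1 complex whose promoter holds an ERSE-II, rose by 0.52 in N1N2 against control crypts (adjusted p = 0.0108), with some overlap of the groups, and fell by 0.70 in N1N2_Lrp6 against N1N2 crypts (adjusted p = 0.00162), with none.

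The derlins are membrane proteins of the export channel, and Derl3 is known as the one found mainly in secretory tissues. For Derl3 the log2 ratio was -1.57, -0.75, -0.76, -1.05 and -1.19 on the N1N2_Lrp6 arrays, -0.48, -0.31, -0.49, -0.49 and -0.19 on the N1N2 arrays and -1.36, -1.13, -1.26, -1.36 and -1.32 on the control arrays. The N1N2 values of Derl3 did not overlap either other group and were higher. Derl3 rose by 0.90 in N1N2 against control crypts (1.86-fold, SE 0.13, adjusted p = 0.000464). Derl3 fell by 0.67 on the log2 scale in N1N2_Lrp6 against N1N2 crypts (SE 0.13, adjusted p = 0.00371). Derl1 and Derl2 were called in none of the 3 comparisons, with changes of 0.13 and 0.32 in N1N2 against control crypts. Taken as differences on the same arrays, Derl3 gained 0.77 on Derl1 and 0.58 on Derl2 in N1N2 against control crypts, each without overlap of the groups (exact permutation p = 0.00794 and adjusted p = 0.0476 for both). These pairs too were picked after their values were seen, so the p-values are not independent of that choice. In N1N2_Lrp6 against N1N2 crypts the differences overlapped and did not pass, at -0.38 for Derl3 to Derl1 and -0.33 for Derl3 to Derl2 (exact permutation p = 0.0397 and 0.119, adjusted p = 0.119 and 0.214). The gap of Derl2 over Derl1 grew by 0.19 in N1N2 against control crypts, which did not pass (exact permutation p = 0.0159, adjusted p = 0.0762).

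The EDEM proteins trim mannose from misfolded glycoproteins and so mark them for export. Edem1 rose by 0.57 in N1N2 against control crypts (adjusted p = 0.0419), a call lost when any 1 of 9 arrays was left out, all control arrays but replicate 3 among them. It fell by 0.75 in N1N2_Lrp6 against N1N2 crypts (adjusted p = 0.00838). Edem3 fell there by 0.47 (adjusted p = 0.0485), which was lost without any 1 of 12 arrays, N1N2_Lrp6 replicate 1 and all N1N2 arrays among them. Edem2 was not called (0.23 and -0.40, adjusted p = 0.384 and 0.1). The differences among the 3 paralogues did not pass in any comparison (adjusted p of 0.0952 or more over the 24 tests).

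The 9 translocon genes had a median change of 0.35 in N1N2 against control crypts. The Sec61 channel has 3 subunits, and all 3 rose in N1N2 against control crypts. Sec61b read 1.04, 1.12, 1.25, 1.06 and 1.20 on the N1N2_Lrp6 arrays, 1.52, 1.52, 1.73, 1.53 and 1.82 on the N1N2 arrays and 1.14, 1.14, 1.25, 1.01 and 1.16 on the control arrays. All N1N2 values lay above all values of the other groups. Sec61b rose by 0.49 in N1N2 against control crypts (1.4-fold, SE 0.08, adjusted p = 0.000915). Sec61b fell by 0.49 on the log2 scale in N1N2_Lrp6 against N1N2 crypts (SE 0.08, adjusted p = 0.00103). With median centring that change was 0.04. A dimmer second probe of Sec61b moved by 0.14 and -0.05, so the probes disagree in size. Sec61g rose by 0.51 (adjusted p = 0.00434) and was not called in N1N2_Lrp6 against N1N2 crypts (-0.26, adjusted p = 0.0894). Sec61a1, the pore itself, rose by 0.61 (adjusted p = 0.0445), though its change was -0.13 with scaling between arrays. The rise was a call lost when any 1 of 11 arrays was left out, all N1N2 arrays and all control arrays but replicate 3 among them. It fell by 0.87 in N1N2_Lrp6 against N1N2 crypts (adjusted p = 0.006).

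Sec62 and Sec63, which help some chains into the channel, and the 4 subunits of the translocon-associated protein complex, Ssr1 to Ssr4, were not called in N1N2 against control crypts, with changes from 0.19 for Sec62 to 0.49 for Ssr4. Ssr1 fell in N1N2_Lrp6 against N1N2 crypts by 0.65 (adjusted p = 0.00255), with values of 0.26 to 0.97 against 1.06 to 1.40 in N1N2 crypts. Sec62 fell by 0.43 (adjusted p = 0.0198), lost without N1N2 replicate 2 or 4. The 2 dimmer probes of Ssr1 moved there by -0.26 and -0.07. A dimmer probe of Sec62 moved by -0.13 there.

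The signal peptidase cuts off the signal peptide, and its 3 listed subunits were called in none of the 3 comparisons. At an unadjusted p under 0.05, 1 of these 3 was lower in N1N2_Lrp6 against N1N2 crypts. Sec11c, a catalytic subunit held in the wider lists, rose in N1N2 against control crypts, as given below. The subunits Spcs1, Spcs2 and Spcs3 changed by 0.31, 0.19 and 0.23 in N1N2 against control crypts, with 95% intervals of -0.10 to 0.72, -0.10 to 0.48 and -0.04 to 0.50. A rise as large as the 0.49 of Sec61b lay within the intervals of Spcs1 and Spcs3 and just outside that of Spcs2.

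Of the oligosaccharyltransferase subunits, 2 of 7 rose in N1N2 against control crypts, namely Rpn1 and Ddost, which lie beside the catalytic subunit. The log2 ratios of Rpn1 were 1.15, 2.34, 2.54, 1.91 and 2.19 in N1N2_Lrp6 crypts, 3.03, 2.80, 3.06, 3.10 and 2.80 in N1N2 crypts and 2.08, 2.14, 2.52, 2.14 and 2.17 in control crypts. Every N1N2 array read higher than every array of the other groups. Rpn1 rose by 0.75 in N1N2 against control crypts (1.68-fold, SE 0.20, adjusted p = 0.0225). That call was lost without control replicate 1, 2 or 5 or N1N2 replicate 4. Rpn1 fell by 0.93 on the log2 scale in N1N2_Lrp6 against N1N2 crypts (SE 0.20, adjusted p = 0.00554). Ddost rose by 0.73 (adjusted p = 0.0193) and fell by 0.70 (adjusted p = 0.0168) in the same comparisons. Rpn2 was not called in N1N2 against control crypts (0.41, adjusted p = 0.172) and fell by 0.65 in N1N2_Lrp6 against N1N2 crypts (adjusted p = 0.0247), lost without N1N2 replicate 2, 3 or 4. Dad1 was called in none of the 3 comparisons, although its change of 0.65 in N1N2 against control crypts was as large as some that passed (SE 0.23, adjusted p = 0.0843).

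The catalytic subunits were not called under Notch blockade. Stt3a, which works alongside the translocon, changed by 0.04 in N1N2 against control crypts (95% interval -0.36 to 0.43), and Stt3b, which catches sites that were skipped, by -0.04 (-0.37 to 0.29). Ostc, a subunit of the STT3A complex, changed by -0.09 (-0.35 to 0.17). These are the 3 lowest changes of the 50 genes in that comparison. Stt3a fell in N1N2_Lrp6 against N1N2 crypts by 0.60 (adjusted p = 0.0395), lost without any 1 of 8 arrays, N1N2_Lrp6 replicate 1 among them. Its difference to Stt3b moved by -0.48 there, which did not pass (exact permutation p = 0.0714, adjusted p = 0.171).

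In N1N2 against control crypts, 14 of the 19 rises were still called whichever 1 of the 15 arrays was left out, and 2 of them, Dnajc10 and Pdia5, held under all 29 alternatives run. In N1N2_Lrp6 against N1N2 crypts, 21 of the 29 falls were still called whichever array was left out, and 0 held under all 28 alternatives, since each was lost under median centring or scaling between arrays.

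The wider ER gene lists held 114 further genes, of which 113 were measured. Of these, 17 rose and 2 fell in N1N2 against control crypts, with a median of 0.15, and the rises lay mostly in the list of other folding factors, 11 of 29. Among them were Txndc5 (1.31), an isomerase, Agr2 (1.27), an isomerase that mucin folding needs, Fkbp11 (1.05), a prolyl isomerase, and Pdia2 (1.02). Tmx4, a membrane-bound thioredoxin-like protein, fell by 0.37. The list of other stress-response factors had 3 rises of 18, Creb3l4 (1.65), Creb3l1 (1.63) and Atf4 (0.71), and 1 fall, Eif2s1 (-0.49), the subunit of eIF2 that PERK phosphorylates. Creb3l1 and Creb3l4 are ER-anchored transcription factors cut by the same proteases as ATF6. The remaining lists had 1 rise each, Erlec1 of 19 in degradation, Sec11c, a catalytic signal peptidase subunit, of 20 in translocation, and Uggt1, which re-glucosylates unfolded chains, of 27 in glycosylation. These are 5.26%, 5% and 3.7% of the genes measured, below the share of all features that rose.

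In N1N2_Lrp6 against N1N2 crypts, 23 of the 113 fell (20.4%) and 2 rose (1.77%), with a median of -0.15. Over all features 7.26% fell and 9.44% rose there. The falls included Erlec1 (-1.07), Uggt1 (-0.93), Creb3l1 (-0.89), Txndc5 (-0.87) and Agr2 (-0.77), and the rises were Prdx4 (0.47) and Eif2s1 (0.51). In N1N2_Lrp6 against control crypts, Creb3l4 and Creb3l1 rose by 0.95 and 0.74 (adjusted p = 0.00681 and 0.0412). These were 2 of the 113 genes, beside 0.221% of all features that rose.

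Markers of secretory and other cells moved in the same comparisons. Over all features, 6.57% rose and 5.15% fell in N1N2 against control crypts, and 9.44% rose and 7.26% fell in N1N2_Lrp6 against N1N2 crypts. In N1N2_Lrp6 against control crypts 0.221% rose and 0.155% fell. The goblet cell list averaged 5.35 ± 0.35 in N1N2_Lrp6 crypts, 5.96 ± 0.25 in N1N2 crypts and 5.07 ± 0.11 in control crypts (SD, n = 5 arrays each). In N1N2 against control crypts, 5 of its 10 genes rose, Spdef, the goblet cell transcription factor, by 1.90 and Retnlb by 1.81 among them, while Muc2, the main mucin, was not called (0.41, adjusted p = 0.286). In N1N2_Lrp6 against N1N2 crypts, 3 of the 10 fell, and in N1N2_Lrp6 against control crypts 1 rose. The Paneth cell list averaged 5.62 ± 0.62, 6.00 ± 0.24 and 5.72 ± 0.17 in N1N2_Lrp6, N1N2 and control crypts, with 0 of 7 called in any comparison and 1 higher at an unadjusted p under 0.05 in N1N2 against control crypts, and Lyz1 changed by 0.04 in N1N2 against control crypts. The enteroendocrine list averaged 4.09 ± 0.14, 4.41 ± 0.21 and 3.53 ± 0.13 in N1N2_Lrp6, N1N2 and control crypts. It had 5 rises of 12 in N1N2 against control crypts, with Neurog3 at 3.83, and 3 falls in N1N2_Lrp6 against N1N2 crypts. In N1N2_Lrp6 against control crypts 2 of the 12 rose. The crypt epithelium list averaged 5.16 ± 0.24 in N1N2_Lrp6 crypts, 5.31 ± 0.23 in N1N2 crypts and 5.13 ± 0.05 in control crypts. The part of these cell types in the changes of the 50 genes was not tested.

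Plasma cells also hold much of this machinery. The plasma and B cell list averaged -0.65 ± 0.18 in N1N2_Lrp6 crypts, -0.43 ± 0.32 in N1N2 crypts and -0.28 ± 0.21 in control crypts, and 0 of its 12 genes were called in any of the 3 comparisons. At an unadjusted p under 0.05, 1 was lower in N1N2 against control crypts, 0 differed in N1N2_Lrp6 against N1N2 crypts, and 3 were lower in N1N2_Lrp6 against control crypts. Igj, the joining chain of secreted antibodies, changed by -0.30 in N1N2 against control crypts (adjusted p = 0.426). Stromal and muscle genes averaged -3.61 ± 0.26, -3.18 ± 0.14 and -2.82 ± 0.33 in N1N2_Lrp6, N1N2 and control crypts, and Col1a1 lay far below the reference at -7.02, -6.23 and -5.87. Of the 12 stromal and muscle genes 2 fell in N1N2 against control crypts, 5 in N1N2_Lrp6 against N1N2 crypts and 2 in N1N2_Lrp6 against control crypts. At an unadjusted p under 0.05 the numbers lower were 4, 7 and 10, again with no share of all features counted at that threshold. T cell and myeloid genes averaged 1.74 ± 0.11 in N1N2_Lrp6 crypts, 1.68 ± 0.16 in N1N2 crypts and 2.01 ± 0.15 in control crypts. Of the 10 measured, 2 fell in N1N2 against control crypts, Gzma by 0.77 and Cd3e by 0.64, and 6 were lower at an unadjusted p under 0.05. None was called in N1N2_Lrp6 against N1N2 crypts (1 higher at an unadjusted p under 0.05) or against control crypts (4 lower). The part of stromal and immune cells in the changes of the ER genes was not tested. Cell cycle genes moved the other way from the ER genes: 9 of 12 fell in N1N2 against control crypts, Mcm6 by 0.80, and 10 of 12 rose in N1N2_Lrp6 against N1N2 crypts, Mcm6 by 0.99. Spots well above background in red made up 64.8% ± 6.01 of all spots on N1N2_Lrp6 arrays, 73.9% ± 3.05 on N1N2 arrays and 75.8% ± 4.19 on control arrays (SD, n = 5 each), and its part in the falls of the ER genes was not tested.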

How the data were processed

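The crypt RNA of each array carried Cy5 (red) and the universal mouse reference RNA Cy3 (green), on all arrays alike, per the labels' protocols. The scanner software was Feature Extraction 11.0.1.1, per the file headers. For each spot the authors deposited median intensities of spot and local background for each dye, the scanner's log10 ratio (red over green) and quality flags. A deposited series table holds log2 values, for which the submitters' processing notes name R 3.0.0 and limma 3.6.7. Set against the log2 ratios computed here, its columns had r of at least 0.99998, slopes of 0.9987 to 1.0034 and medians of 0.0144 to 0.0286, so they are log2 of crypt over reference.

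In R 4.3.3 with limma 3.58.1, spots carrying the scanner's marks for uneven signal, uneven background or outliers (306 to 642 of 44397 per array) were left out. The background was then corrected with normexp (offset 50) on median intensities, since the files used hold no mean spot intensity, and log2 ratios were normalized within arrays by loess. Replicate spots were averaged. Probes had to pass the scanner's red well-above-background flag on 4 or more of the 5 arrays in some group, and 28488 of 39429 did. Accessions were named through a RefSeq table of assembly GRCm38.p6, which named 16058 of the 23939 features, and the brightest kept probe stood for a gene. All features were fitted together (lmFit, eBayes, 15 arrays), with two-sided p-values adjusted by Benjamini-Hochberg over all features and a threshold of 0.05. The number of arrays limits the precision. The fit was also run on simulated data with independent noise on each array and no slide effect or shift of a whole array. That run could not show how the fit handles either. Alternatives changed the background correction, marked spots, scaling, probe filter, probe choice, deposited values, slide, replicate block, arrays in the fit and array weights. Exact permutation tests and promoter searches used Python 3.11.15 with scipy 1.17.1.

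The genes, their roles, the other lists and the rule for naming genes were chosen with earlier results of these data known. Every listed gene could be named, of the wider ER lists up to 4 rises and 4 falls per list and comparison by size, and of marker lists up to 4 per comparison, plus Muc2, Lyz1, Igj, Col1a1 and Mcm6. The 8 pairs of related genes were picked after their values were seen. Protein ends were planned as a further description and were not analysed here.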

Additional observations from a re-analysis of the deposited data

Results flagged for a closer look

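Each gene's 5 values in each group were checked for an array far from the other 4, by Dixon's test at its 95% critical value of 0.71. Of 150 groups of values 13 held such an array, and chance alone gives about 1 in 20. None of the 13 lay in the N1N2 group. Control replicate 3 accounted for 8 of them, all high. P4hb read 3.38 there, against 2.61 to 2.70 on the other control arrays, and Pdia3 2.80, against 2.09 to 2.21. Creld2 read 1.12 (others 0.53 to 0.70), Sel1l 0.98 (0.22 to 0.42), Sec61a1 3.14 (2.51 to 2.67), Sec63 1.68 (1.26 to 1.31), Rpn1 2.52 (2.08 to 2.17) and Stt3b 1.89 (1.38 to 1.49). N1N2_Lrp6 replicate 1 accounted for 4, all low. Sel1l read -0.48 there, against 0.44 to 0.70 on the other arrays of its group, Derl1 -0.26 (0.84 to 1.05), Derl2 0.84 (2.07 to 2.39) and Sec61a1 1.62 (2.51 to 2.85). The last was control replicate 1, where Pdia4 read 0.63, against 1.12 to 1.30 on the other control arrays.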

How the results depend on the processing

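In N1N2 against control crypts, the count of 19 rises became 7 with median centring, 4 with scaling between arrays and 2 with slide as a block. The shares of all features that rose were 2.39%, 1.98% and 0.326% in these fits. When 1 array was left out the count ranged from 14 to 27, and the share of all features that rose from 3.86% to 8.6%. The median of 0.43 became 0.61 with marked spots kept, 0.14 with median centring and 0.14 with scaling, where Sec61a1 turned to -0.13. In N1N2_Lrp6 against N1N2 crypts, the 29 falls became 19 with marked spots kept, beside 4.36% of all features that fell. They became 8 with median centring and 1 with scaling, beside 3.26% and 0.664% of all features. When 1 array was left out they ranged from 22 to 32, and the share of all features that fell from 4.51% to 8.67%. The median of -0.55 became -0.26 with median centring, where Sec61b turned to 0.036. In N1N2_Lrp6 against control crypts, the count of 1 became 0 with the scanner's log ratio, median centring or scaling. It was also 0 with the replicate block or only the 2 groups in the fit. With array weights it became 2, both rises, beside 1.07% of all features that rose. With slide as a random block it became 8, with 4 rises and 4 falls, beside 7.3% of all features that rose and 4.9% that fell. That fit estimated a correlation of -0.18 between arrays of a slide. The count in this comparison ranged from 0 to 1 when 1 array was left out, and the share of all features that rose from 0.0794% to 0.969%. Its median of -0.12 turned to 0.0851 with marked spots kept and to 0.0053 with array weights, and ranged from -0.22 to 0.0477 when 1 array was left out, the last without N1N2_Lrp6 replicate 1. Over all features 1729 of 2453 calls were rises in N1N2 against control crypts with marked spots kept. In N1N2_Lrp6 against control crypts 53 of 90 calls were rises, against 55 of 142 with the scanner's log ratio, 42 of 48 with marked spots kept and 38 of 50 with only the 2 groups. The replicate block gave 21, 30 and 0 calls, the first beside 5.92% of all features that rose and the second beside 7.01% that fell. Between N1N2 and control, 4 of 5 pairs of arrays sharing a number deviated together (0.135 to 0.622) and 1 did not (-0.011), while pairs with N1N2_Lrp6 arrays lay between -0.433 and 0.098, so the numbers were not taken to pair the arrays. The causes of these shifts were not tested. Quantile normalization of average intensities leaves log ratios as they are and was not run. Slide and group cannot be told apart for the N1N2_Lrp6 arrays, and 5 arrays per group limit what can be called.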
